A study of Mus musculus with 4 samples.

Results

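The genes followed here serve innate immune sensing: the Toll-like receptors Tlr2, Tlr3, Tlr4, Tlr7, Tlr9 and Tlr13, the co-receptors Cd14, Ly86 and Cd180, and the adaptor Myd88. They were taken by name, and all 10 were among the 16798 genes of the count table. Immune cells (CD45+, the pan-leukocyte surface protein) had been sorted from mouse cortex at 18 months of age and profiled by droplet single-cell RNA sequencing with 10x Genomics 3′ chemistry. The genotypes compared were APP/PS1 Axl-/- Mertk-/- mice (ADAM), which lack 2 receptor tyrosine kinases of the TAM family, and APP/PS1 mice (AD), a transgenic line that deposits amyloid. Both genotypes carry APP/PS1, so no amyloid-free mouse enters any comparison. Each genotype had 2 libraries, and each library pooled 2 cortices. The labels name no driver or cell type that would limit the deletions.

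Toll-like receptors bind conserved parts of microbes and of damaged cells, at the cell surface or inside endosomes. Most of them signal through the adaptor MyD88 to NF-kB and to interferon regulatory factors, and Tlr3 signals through another adaptor, TRIF. In brain the receptors are known mainly from microglia, where Tlr2, Tlr4 and Cd14 have been studied as binding partners of fibrillar amyloid, and TAM receptors are known to dampen Toll-like receptor signalling in macrophages and dendritic cells.

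The libraries held 3578 and 4089 cells with 23190134 and 26212313 unique molecular identifiers (UMIs, counted molecules) in ADAM 1 and ADAM 2, and 3241 and 4543 cells with 14963857 and 29831947 UMIs in AD 1 and AD 2. Microglia, here cells of the authors' microglia class that carry 1 of 7 numbered states, came to 2317 and 2060 in ADAM and 1600 and 3100 in AD. Levels are in CPM, the UMIs of a gene for every 1000000 UMIs of the same set of cells in the same library. Of 15427 distinct cell barcodes, 24 occurred in more than 1 library. Axl stood at 5.37 and 7.22 CPM in ADAM microglia and at 104 and 67.1 CPM in AD microglia. Mertk stood at 246 and 274 CPM in ADAM and at 274 and 296 CPM in AD, and 3′ tags that fall outside a deletion cannot check it. The 5 microglia markers Tmem119, P2ry12, Cx3cr1, Sall1 and Fcrls summed to between 4729 and 6250.1 CPM in microglia. State 2 and the monocyte class stood apart from the rest. State 2 was shallow, with a median of 808.5 to 886.5 UMIs per cell, and held red cell genes at 170234 CPM in ADAM 2 and choroid plexus genes at 61628 CPM in AD 1. The monocyte class held 6 neutrophil markers at 69762 CPM in ADAM 2, against 4220 CPM in ADAM 1 and 119 and 2072 CPM in AD.

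Promoter stretches are shown for Tlr2 and Myd88, a receptor and its adaptor whose levels went opposite ways between microglia states 5 and 0. They are read on the strand of the gene from RefSeq's promoter table on GRCm38.p6, lie outside every exon that GENCODE annotates for the gene, and carry in capitals the matches to searched motifs. Tlr2 is the 91 bases at chr3:83841768-83841858 (minus strand), and Myd88 the 227 bases at chr9:119340042-119340268 (minus strand). Each stretch ends next to the first exon of a GENCODE transcript, and the Myd88 stretch also lies in the intron of 1 of the 3 Myd88 transcripts, which starts farther upstream.
Tlr2: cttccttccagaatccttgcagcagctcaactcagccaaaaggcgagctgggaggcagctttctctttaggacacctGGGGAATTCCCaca
Myd88: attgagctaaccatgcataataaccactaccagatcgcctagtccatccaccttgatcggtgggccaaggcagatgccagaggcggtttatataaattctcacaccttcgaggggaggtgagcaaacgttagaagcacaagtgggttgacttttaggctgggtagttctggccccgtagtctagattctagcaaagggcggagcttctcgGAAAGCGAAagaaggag

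Both strands were searched for 4 motifs: the NF-kB consensus, the interferon-stimulated response element core GAAANNGAA, the ETS core GGAAGT and the AP-1 motif TGANTCA. The capitals of Tlr2 hold 3 overlapping matches to the NF-kB consensus, the first at base -173 from the RefSeq start and 14 bases before the GENCODE start. The same window held an NF-kB match in 1.30% of 32851 promoter entries. The capitals of Myd88 are 1 match to the interferon-stimulated response element core, at base -40 from the RefSeq start and 17 bases before the nearest GENCODE start downstream, and 6.46% of the entries held that motif in the same window. Neither stretch held an ETS or AP-1 match. The same motifs were searched before Ly86, Cd180, Tlr3, Tlr9 and Tlr13, in windows of other lengths. The promoters of Cd14, Tlr4 and Tlr7 were not searched. Cd180 held only an ETS match, Tlr9 only an AP-1 site that matched on both strands, and Ly86, Tlr3 and Tlr13 held none. A link of any motif to the levels by state was not tested. These are matches of letters, and no binding was measured.

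Across the authors' cell classes, microglia had the highest mean level of Tlr2, Cd14, Ly86, Cd180, Tlr3 and Tlr7, and for all of these but Tlr7 no microglia library overlapped any library of the next class. Neutrophils and monocytes held the highest levels of Tlr13 and Myd88. These levels are a description over libraries with at least 20 cells of the class, since the classes came from clustering the same cells.

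Tlr2, the surface receptor of bacterial lipopeptides, stood in microglia at 113 and 130 CPM in ADAM and 111 and 97.4 CPM in AD. Macrophages followed at 81.1 and 87.8 CPM in ADAM and 71.8 and 74.6 CPM in AD, and monocytes at 70.5 and 96.2 CPM in ADAM and 45.6 and 50.7 CPM in AD. The ranges of macrophages, monocytes and neutrophils overlapped. Tlr4, the receptor of bacterial lipopolysaccharide, averaged 19.9 ± 2.29 CPM in microglia (SD, n = 4 libraries). Neutrophils averaged 27.6 ± 17.3 CPM of Tlr4 (n = 3), macrophages 24.5 ± 9.24 CPM (n = 4) and monocytes 15.5 ± 3.58 CPM (n = 4). Their ranges overlapped in this order, so the classes could not be ranked for Tlr4.

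Cd14, which hands lipopolysaccharide to Tlr4 and takes part in Tlr2 signalling, stood in microglia at 455 and 605 CPM in ADAM and 574 and 460 CPM in AD. Every microglia library was above the macrophages, which ranged from 279 to 343 CPM. Neutrophils averaged 276 ± 150 CPM (n = 3) and monocytes 262 ± 95.1 CPM (n = 4). Ly86, also called MD-1, is the secreted partner that binds Cd180 at the cell surface. It stood in microglia at 2369.6 and 2269 CPM in ADAM and 2402 and 2109 CPM in AD, and averaged 1048 ± 211 CPM in macrophages (n = 4). Cd180, or RP105, a Toll-like receptor homologue without a signalling domain that is best known from B cells, was at 141 and 163 CPM in ADAM microglia and 178 and 150.3 CPM in AD microglia. B cells came second with 84.1 ± 30.3 CPM (n = 3), and their range overlapped that of macrophages at 74.3 ± 16.5 CPM (n = 4).

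Of the endosomal receptors, Tlr3, the sensor of double-stranded RNA, was at 35.8 and 39.7 CPM in ADAM microglia and 35.4 and 42.9 CPM in AD microglia. Macrophages averaged 22.5 ± 6.64 CPM of Tlr3 (n = 4) and monocytes 2.00 ± 2.33 CPM (n = 4). Tlr7, the sensor of single-stranded RNA, was at 69.0 and 72.8 CPM in ADAM microglia and 77.7 and 82.1 CPM in AD microglia. Macrophages with 64.0 ± 13.6 CPM and monocytes with 60.1 ± 17.9 CPM of Tlr7 (n = 4 each) overlapped with microglia. Tlr13, the sensor of a bacterial ribosomal RNA sequence in the mouse, averaged 114 ± 24.4 CPM in neutrophils (n = 3), 79.7 ± 8.10 CPM in monocytes (n = 4) and 62.1 ± 4.51 CPM in microglia (n = 4). All monocyte libraries were above all microglia libraries for Tlr13. Tlr9, the sensor of unmethylated CpG DNA, was near the detection limit, with 18 and 17 UMIs in ADAM microglia and 10 and 31 UMIs in AD microglia. Its mean in every class was 2.83 CPM or less, and T and NK cells had no Tlr9 UMI in any library, where 3 UMIs would have been 0.927 to 1.18 CPM.

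Myd88, the shared adaptor, had another order. It averaged 76.8 ± 20.6 CPM in monocytes (n = 4), 73.3 ± 26.7 CPM in neutrophils (n = 3) and 33.7 ± 6.78 CPM in macrophages (n = 4). In microglia it was at 18.5 and 21.6 CPM in ADAM and 21.9 and 23.2 CPM in AD, below every macrophage library. The microglia marker sum was 1705 to 3693 CPM in macrophages, 1423 to 2516 CPM in neutrophils of the 3 libraries with at least 20 such cells and 281 to 646 CPM in monocytes. Its part in the levels of these classes was not tested.

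**Figure D1:**
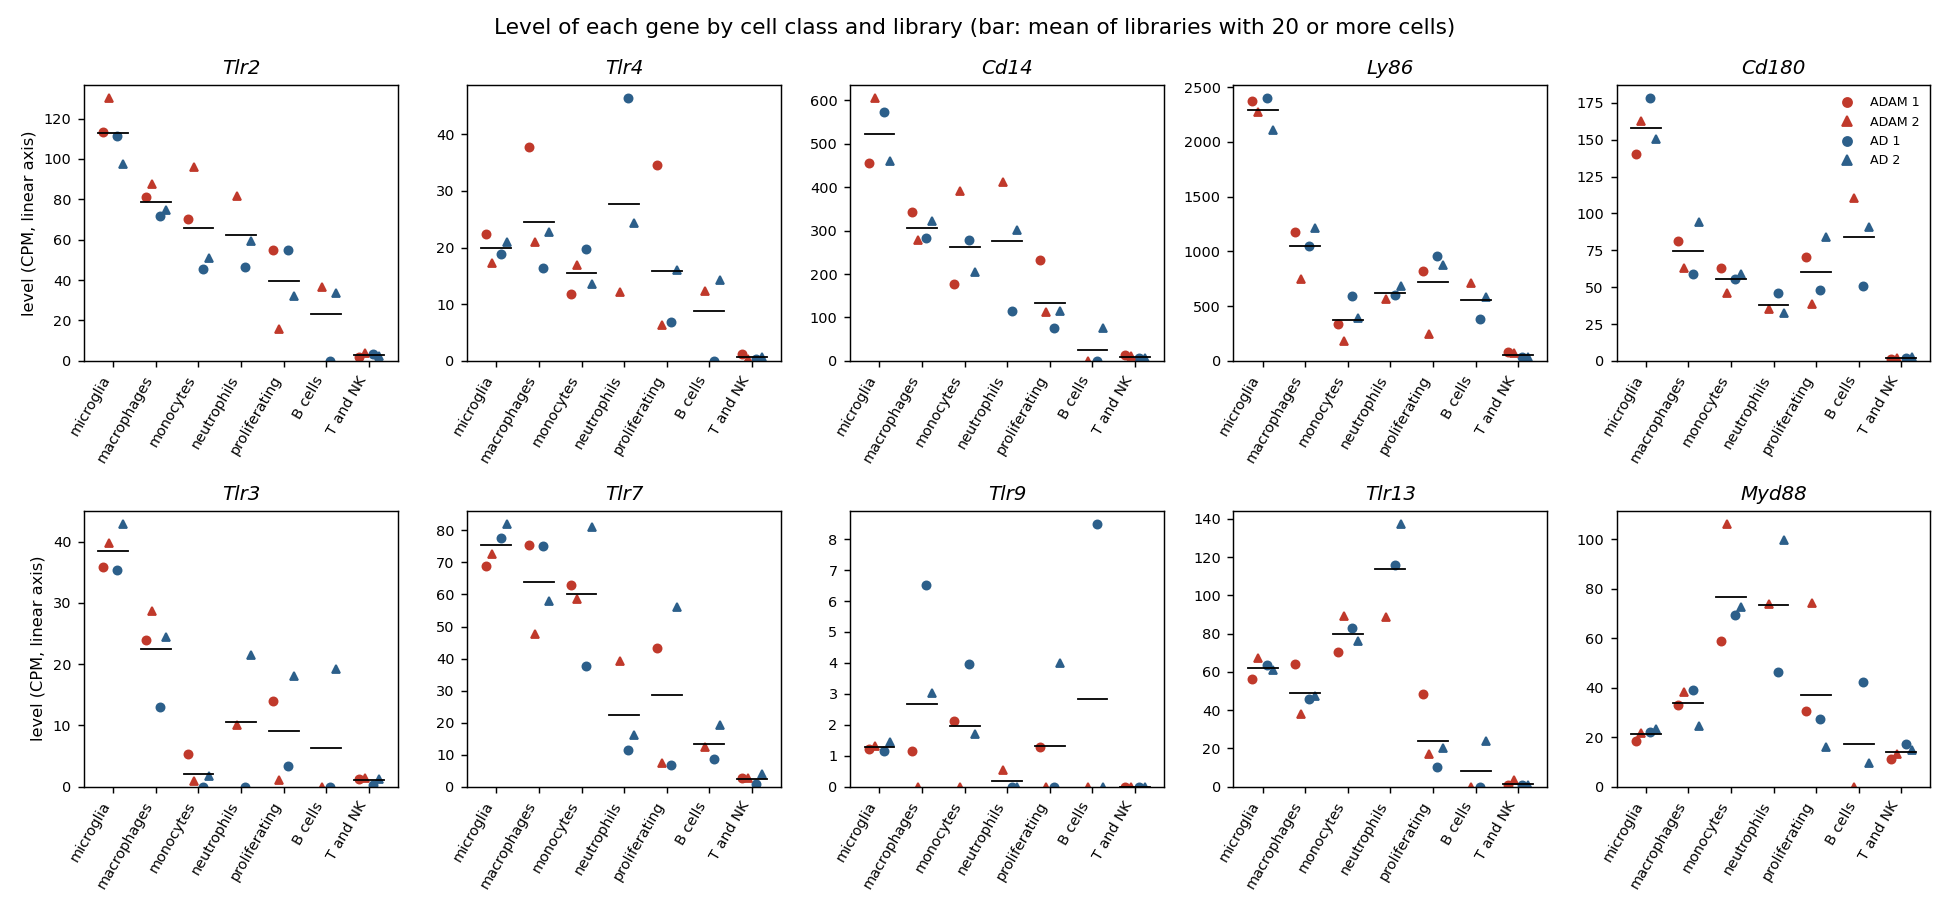
Level of each of the 10 genes in CPM (linear vertical axis, from 0) by cell class, with 1 point per library holding at least 20 cells of the class (red ADAM, blue AD) and a bar at their mean. Microglia are highest for Tlr2, Cd14, Ly86, Cd180 and Tlr3 without overlap, while Tlr13 and Myd88 are highest in neutrophils and monocytes.

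Within microglia the receptors and the adaptor split by state. State 5 carried the markers of disease-associated microglia (Gpnmb, Cst7, Spp1, Itgax, Lpl and Clec7a), which summed to between 11371 and 18407 CPM in state 5 and between 307 and 416 CPM in state 0. Of the 9 genes with at least 4 UMIs in both states of every library, Cd14 and Tlr2 were higher in state 5 than in state 0 in 4 of 4 libraries, Cd180, Tlr7, Tlr13, Tlr4, Myd88 and Tlr3 were lower in 4 of 4, and Ly86 was higher in 3 of 4. The states were clustered on the genes of these cells, so the differences are described without a test.

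Cd14 had the largest of the higher levels. It stood in state 5 at 710 and 908 CPM in ADAM and 791 and 789 CPM in AD, against 302 and 328 CPM in ADAM and 350.0 and 302 CPM in AD in state 0. The 8 values fell into separate ranges by state, and the mean log2 difference was 1.32 ± 0.13 (SD, n = 4 libraries), a 2.49-fold higher level. Tlr2 stood in state 5 at 145 and 139 CPM in ADAM and 123 and 126 CPM in AD, against 92.8 and 119 CPM in ADAM and 88.4 and 82.5 CPM in AD in state 0. The lowest state 5 library was just above the highest state 0 library, ADAM 2, and the mean log2 difference was 0.49 ± 0.19 (n = 4). Ly86 differed by 0.16 ± 0.16 on the log2 scale, with ADAM 2 at -0.07.

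Tlr3 had the lowest state 5 level relative to state 0. It stood in state 5 at 17.8 and 21.5 CPM in ADAM and 19.2 and 18.6 CPM in AD, against 48.0 and 59.4 CPM in ADAM and 54.7 and 53.2 CPM in AD in state 0. The mean log2 difference was -1.48 ± 0.038 (SD, n = 4), a spread smaller than that of any other gene here with 4 libraries. Myd88 stood in state 5 at 9.84 and 11.3 CPM in ADAM and 13.9 and 10.7 CPM in AD, against 23.6 and 30.6 CPM in ADAM and 30.5 and 28.8 CPM in AD in state 0, a mean log2 difference of -1.32 ± 0.15. Tlr4 stood in state 5 at 10.7 and 11.5 CPM in ADAM and 10.9 and 10.0 CPM in AD, against 28.8 and 23.9 CPM in ADAM and 27.6 and 26.5 CPM in AD in state 0, a mean log2 difference of -1.31 ± 0.17. Thus the co-receptor Cd14 and the receptor Tlr4 that it serves had opposite differences between the same cells. Smaller negative log2 differences were seen for Tlr13 (-0.61 ± 0.25), Tlr7 (-0.57 ± 0.15) and Cd180 (-0.22 ± 0.10).

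**Figure D2:**
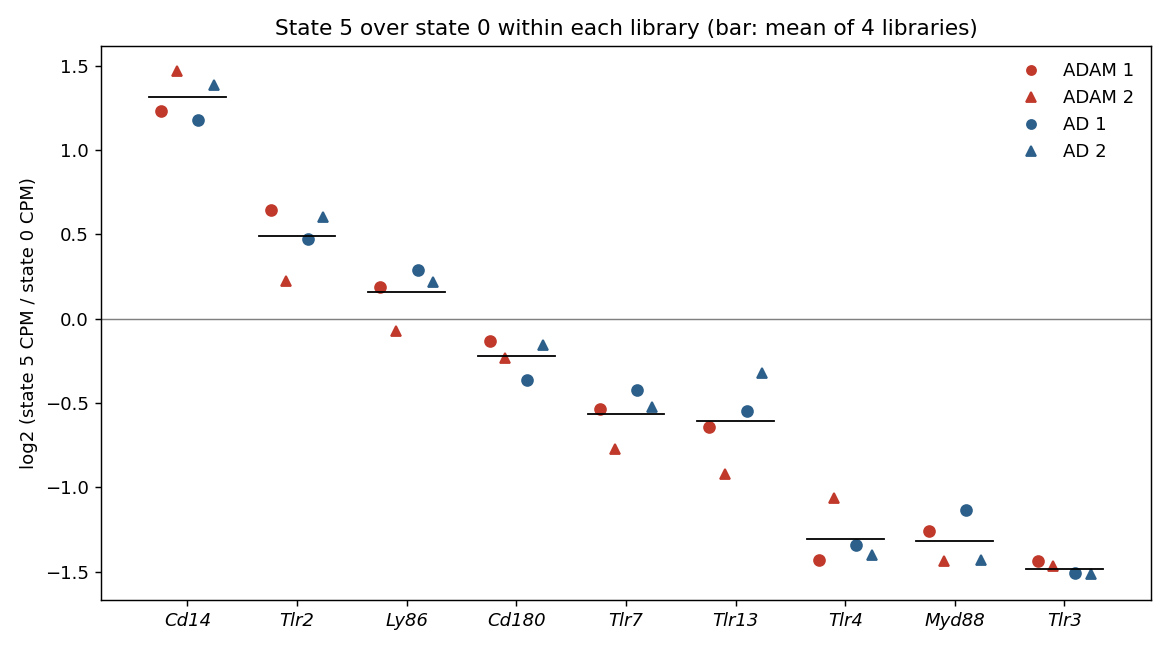
Log2 ratio of the level in microglia state 5 over state 0 within each library (vertical axis), for the 9 genes measured in both states of every library, with red points for ADAM, blue for AD and a bar at the mean of 4 libraries. Cd14 and Tlr2 are above 0 in every library, and Cd180, Tlr7, Tlr13, Tlr4, Myd88 and Tlr3 are below 0 in every library.

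The smaller states added to this split. State 1 had the highest mean of Tlr3 at 89.5 ± 29.9 CPM, of Tlr7 at 107 ± 7.07 CPM, of Tlr4 at 34.1 ± 11.5 CPM and of Myd88 at 38.2 ± 11.03 CPM, over the 3 libraries with at least 20 cells. For Tlr3 and Tlr7 the state 1 libraries were above all libraries of state 0, whereas for Tlr4 and Myd88 the ranges overlapped. State 6 had the highest mean of Tlr2, at 133 and 210.1 CPM in ADAM and 281 CPM in AD 1, the only AD library with 20 such cells. Its range overlapped that of state 4 (146 to 232 CPM), and over the ADAM libraries alone the Tlr2 mean was 172 CPM in state 6 and 192 CPM in state 4. State 4 had the highest Cd14 at 856 ± 205 CPM (n = 4) and the lowest Ly86 at 1439 ± 328 CPM (n = 4), which overlapped state 2. The Cd14 ranges of states 4, 5, 6 and 2 overlapped, and all libraries of these states were above those of state 0. State 3 was low for Tlr2 at 33.4 ± 14.998 CPM, for Cd180 at 64.4 ± 16.2 CPM and for Tlr3 at 9.08 ± 5.12 CPM (n = 4 each), while its Ly86 at 2273 ± 166 CPM was within the range of state 0. The Tlr3 level of state 3 rests on 2 and 4 UMIs in ADAM and 1 and 6 UMIs in AD, near the detection limit. Its Tlr2 level rests on 8 and 21 UMIs in ADAM and 7 and 9 UMIs in AD. State 2 had the highest mean of Cd180 at 240.2 ± 33.4 CPM (n = 4), overlapping state 1, in the shallow cells with the red cell and choroid plexus genes given above, whose part in that level was not tested.

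**Figure D3:**
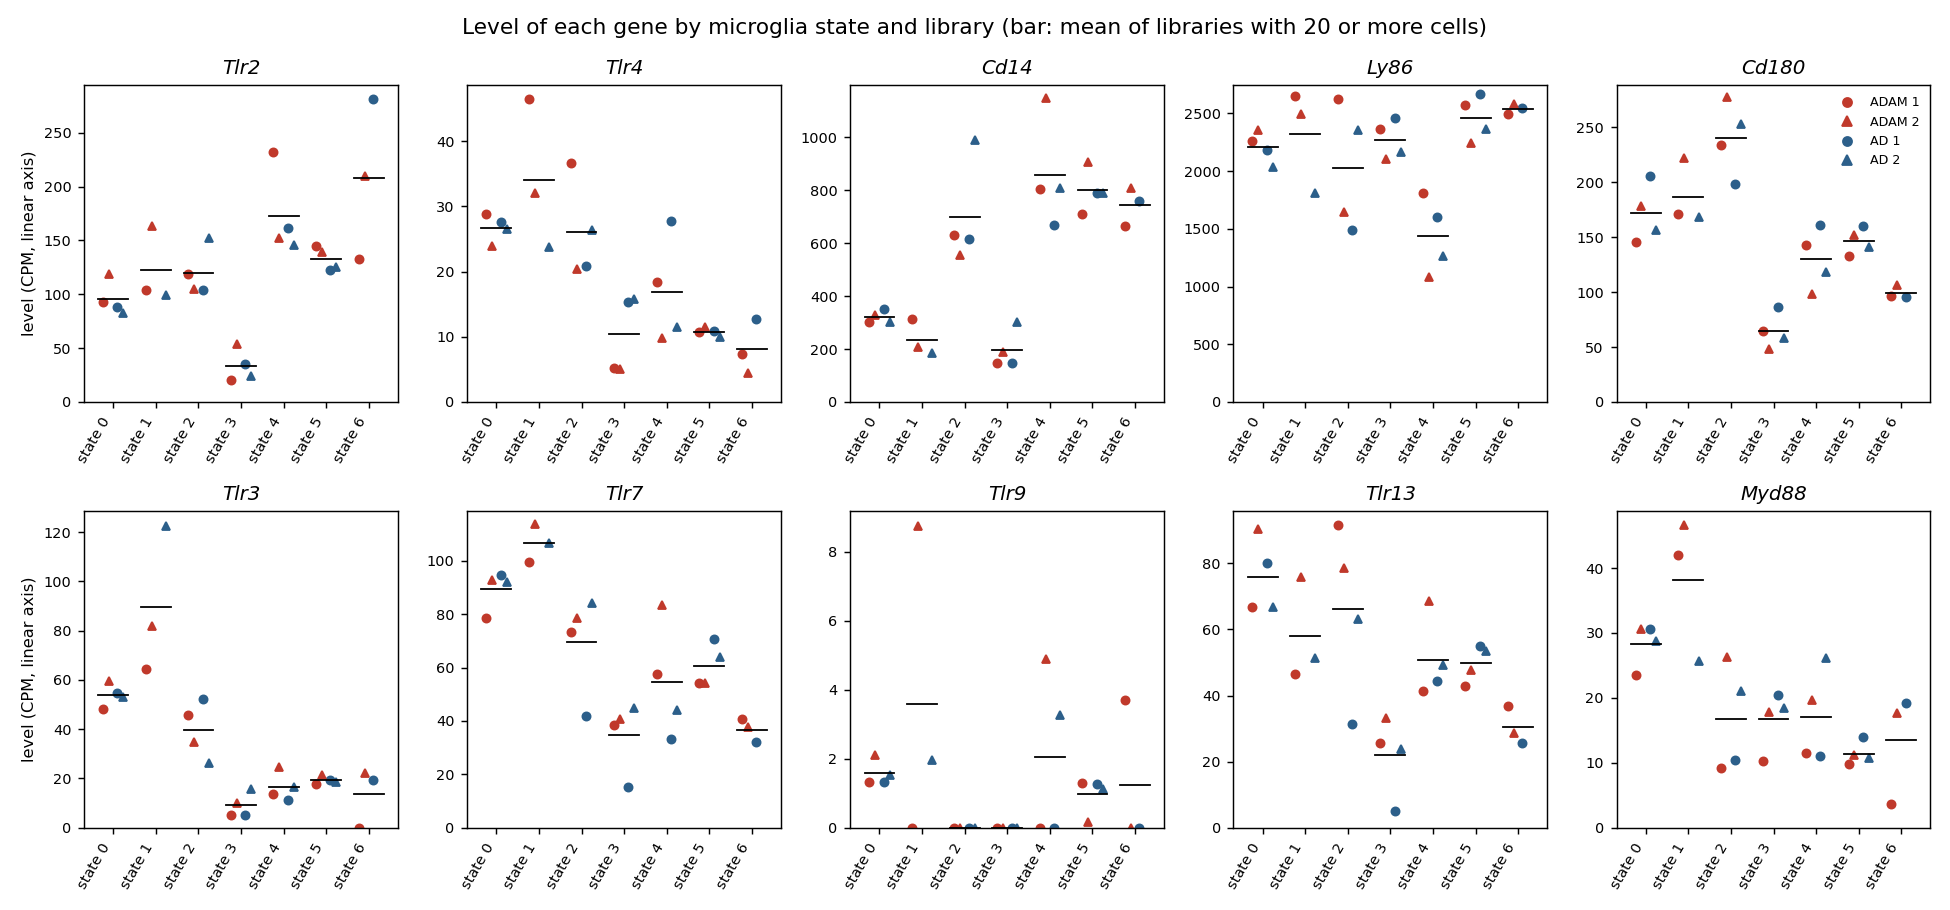
Level of each of the 10 genes in CPM (linear vertical axis, from 0) by microglia state, with 1 point per library holding at least 20 cells of the state (red ADAM, blue AD) and a bar at their mean. Tlr3, Tlr7 and Myd88 have their highest means in states 0 and 1, and Cd14 is high in states 2, 4, 5 and 6.

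Likeness across the states was measured as the Pearson correlation of log2(CPM + 1) over 26 points (state by library, each library centred on its own mean), which share library, depth and the clustering. Among the 10 genes the highest correlations were between Tlr7 and Tlr13 (r = 0.85) and Tlr3 and Tlr7 (r = 0.75). Next were those of Tlr4 and Cd180, of Tlr4 and Tlr3, and of Tlr2 and Cd14 (r = 0.73 each). The lowest was that of Cd14 and Myd88 (r = -0.46). Of 5261 genes with a mean of at least 20 CPM, those most like Cd14 were Soat1 (r = 0.95), which esterifies cholesterol, Chst11 (0.91) and Plau (0.90). Those most like Tlr2 were Rgs1 (0.90), H2-K1 (0.87) and Mettl1 (0.87). Cd180 was most like Gpatch8 (0.95), Mertk (0.94) and Rbm5 (0.94), and Mertk is 1 of the 2 deleted genes, with the 3′ tags described above. Tlr4 was most like Orai1 (0.91), Celf2 (0.89) and Cflar (0.88), Tlr3 most like Kdm2b (0.90), Ganc (0.89) and Phf21a (0.89), and Tlr7 most like Vcpip1 (0.91), Camsap1 (0.88) and Dido1 (0.87). Tlr13 was most like Tmem268 (0.93), Tug1 (0.93) and Rlf (0.92), and Myd88 most like Bin2 (0.83), Grk2 (0.80) and Lgals9 (0.79). For Ly86 and Tlr9 the highest values were lower, 0.75 with Ssbp4 for Ly86 and 0.75 with Lasp1 for Tlr9, whose few UMIs make its value uninformative.

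At least 1 UMI of Ly86 was found in 97.9% and 95.7% of ADAM microglia and in 97.3% and 98.2% of AD microglia. For Cd14 the shares were 73.5% and 75.7% in ADAM and 74.9% and 78.3% in AD, and for Tlr2 38.2% and 42.6% in ADAM and 35.2% and 39.1% in AD. For Tlr4 they were 12.7% and 10.0% in ADAM and 9.62% and 13.2% in AD. Exact 95% binomial intervals for Tlr4 were 11.4 to 14.2% and 8.74 to 11.4% in ADAM and 8.22 to 11.2% and 12.1 to 14.5% in AD, and such intervals cover counting error only. Thinned to 2000 UMIs per cell, the mean share fell to 18.5% for Tlr2, 52.6% for Cd14 and 4.35% for Tlr4, and was 96.8% for Ly86. Thinning left out cells with fewer than 2000 UMIs, among them most of state 2, so the thinned shares cover fewer cells than the unthinned shares. Lymphocytes of the T and NK class, taken here as the background class, had Tlr2 UMIs in 0.737% and 1.49% of ADAM cells and 1.08% and 0.845% of AD cells. Median depths were 3406 and 3416 UMIs in T and NK cells of ADAM and 2925.5 and 3547.5 in those of AD, against 5472 and 5698.5 in ADAM microglia and 4719.5 and 6170.0 in AD microglia. The shares of microglia and of T and NK cells were thus taken at unlike depths. Removing UMIs can only lower the chance of finding a gene in a cell, so only the size of a fall is informative. For Ly86 the mean share was 97.3% unthinned and 96.8% thinned.

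The question of the genotype comparison was whether loss of Axl and Mertk changed the receptors on an amyloid background. In microglia none of the 10 genes was called by the quasi-likelihood test of edgeR at an adjusted p of 0.05, with 2 libraries per genotype, and none had an unadjusted p under 0.05. DESeq2 and limma-voom also called 0 of the 10. Over all 11924 genes tested in microglia 0.0419% were called. The log2 folds, ADAM over AD, ranged from -0.12 (SE 0.11) for Tlr7 to 0.28 (SE 0.14) for Tlr2. Of the 10 folds 5 were positive, and their median was 0.018, beside 0.0035 over all genes tested, of which 51.0% were positive. All p-values here measure the spread between pools of cortices, and a p that misses the threshold does not show that levels were alike.

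Tlr2 came nearest in microglia, with an unadjusted p of 0.078 (adjusted p = 1.0 by edgeR). The values given above for microglia show both ADAM libraries above both AD libraries, ADAM 1 by a small margin. Within state 0, where the mix of states does not enter, Tlr2 had a log2 fold of 0.39 (SE 0.13, adjusted p = 0.97 by edgeR), with 92.8 and 119 CPM in ADAM and 88.4 and 82.5 CPM in AD. Without ADAM 1 the Tlr2 fold in state 0 was 0.58 and was called (adjusted p = 0.022 by edgeR), where 1.58% of all genes were called. That comparison leaves ADAM 2 alone, so that the AD libraries give the spread. In state 5 the Tlr2 fold was 0.19 (SE 0.11, adjusted p = 0.96 by edgeR). Tlr4 had a log2 fold of 0.037 (SE 0.15) in microglia, Cd14 0.094 (SE 0.20), Ly86 0.094 (SE 0.14), Cd180 -0.058 (SE 0.15), Tlr3 -0.0013 (SE 0.13), Tlr13 0.048 (SE 0.13) and Myd88 -0.11 (SE 0.14). For Cd14 the 2 libraries of each genotype lay far apart, and ADAM 2 and AD 1, with the higher levels, also had more of their microglia in state 5. That share was 27.2% and 37.4% in ADAM and 37.1% and 23.3% in AD. Within state 0 the Cd14 fold was 0.039 (SE 0.12) and within state 5 0.029 (SE 0.13). Inside each of these states ADAM 2 and AD 1 were again the higher library of their genotype, in state 5 of AD only by 791 against 789 CPM. The part of the state shares in the spread of Cd14 was not tested.

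**Figure D4:**
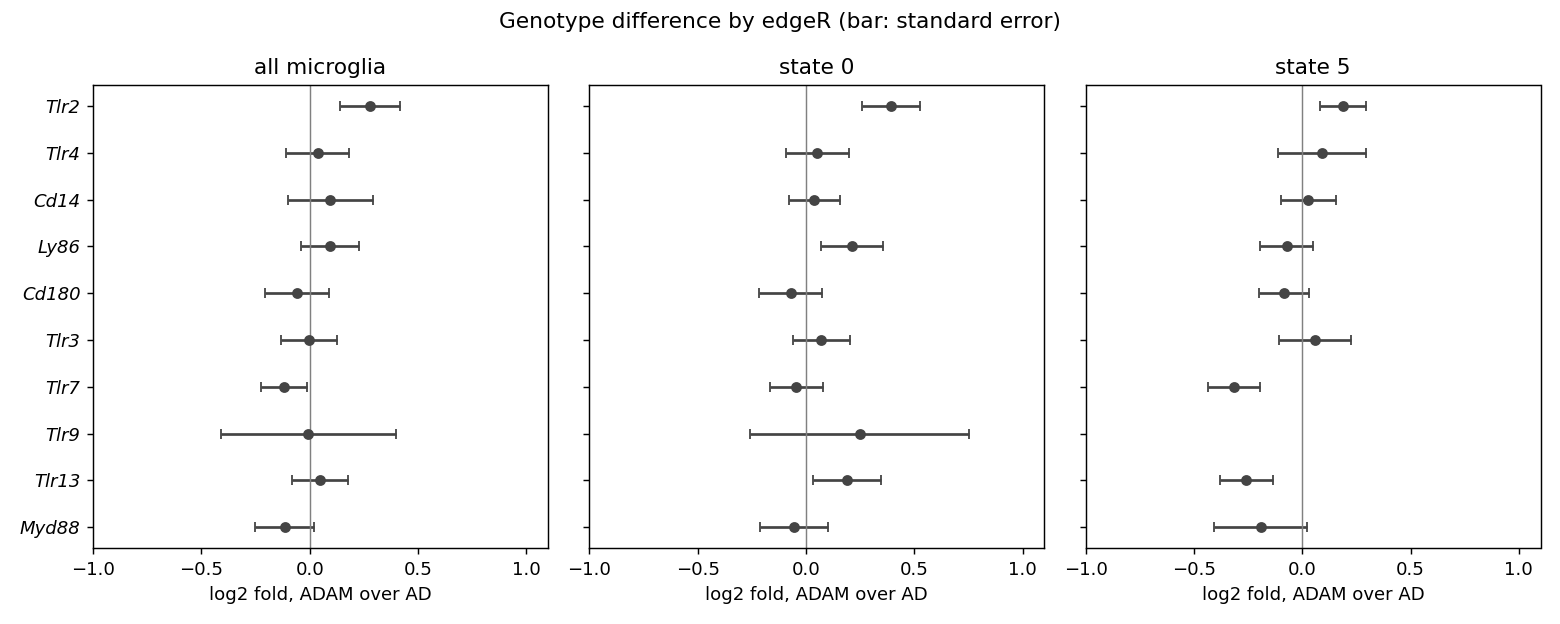
Log2 fold, ADAM over AD, of each gene in all microglia, in state 0 and in state 5 (horizontal axes), as points with the standard error of the edgeR fit of 2 against 2 libraries. Tlr2 is the highest in all microglia at 0.28 and in state 0 at 0.39, and no fold in these 3 panels was called. Tlr9 was not tested in state 5.

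Among the other sets, those with 20 cells or more per library, the only call was Ly86 in T and NK cells. The background of calls, as a share of all genes tested, was 0.241% in T and NK cells, 0.155% in monocytes, 0.0154% in macrophages, 0.0842% in proliferating cells, 0.101% in state 0, 0.0635% in state 2, 0.313% in state 3, 0.127% in state 4 and 0.153% in state 5. Over the 10 sets, 74 tests of the 10 genes were made and 1 was called. Outside T and NK cells, at an unadjusted p under 0.05, edgeR had 2 of 8 tested genes in monocytes, 1 of 8 in proliferating cells, 1 of 10 in state 0 and 1 of 9 in state 5. The share of all genes at that p was 8.51% in monocytes, 8.73% in proliferating cells, 4.22% in state 0 and 5.3% in state 5. At the same p edgeR had none of 9 in macrophages and none of the 6, 5 and 6 tested in states 2, 3 and 4. DESeq2 and limma-voom called none of the genes in any of these 8 sets.

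Ly86 was higher in T and NK cells of ADAM, at 79.2 and 72.8 CPM from 201 and 196 UMIs, against 35.2 and 34.9 CPM in AD from 114 and 110 UMIs. The libraries of each genotype lay close together, and the log2 fold was 1.13 (SE 0.15, adjusted p = 0.0054 by edgeR). The fold kept its size but not its call without AD 1 (adjusted p = 0.098 by edgeR) or without AD 2 (adjusted p = 0.052 by edgeR). The level of Ly86 in this class, as a share of that in microglia of the same library, was 3.34% and 3.21% in ADAM and 1.47% and 1.65% in AD. The 5 microglia markers, summed, stood at 174 and 136 CPM in T and NK cells of ADAM and at 116 and 112 CPM in those of AD, all 5 above 0 in every library. Set against microglia of the same library, that sum came to 2.89% and 2.88% in ADAM and to 1.97% and 1.80% in AD. Cx3cr1 gave 50.8 and 52.8 CPM of the sum in ADAM and 58.4 and 52.3 CPM in AD. Its own share of the microglial level was 2.18% and 2.31% in ADAM and 2.42% and 1.92% in AD. The other 4 markers each lay between 2.72% and 4.65% in ADAM and between 1.37% and 2.51% in AD. Of the 5 markers 4 had a positive log2 fold in T and NK cells, from 0.55 for P2ry12 to 1.12 for Fcrls, and Cx3cr1 had -0.085. None of the 5 was called (edgeR adjusted p = 0.30 for Fcrls). The part of these markers in the Ly86 difference was not tested.

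Cd14 in T and NK cells stood at 14.6 and 11.2 CPM in ADAM and 6.49 and 6.65 CPM in AD, a log2 fold of 0.97 (SE 0.30) that was not called (adjusted p = 0.54 by edgeR). Its level there was 3.21% and 1.84% of that in microglia in ADAM and 1.13% and 1.45% in AD. Only 3 of the 10 genes passed the filter on low counts in T and NK cells, the other being Myd88. Of these, 2 had an unadjusted p under 0.05 by edgeR, Ly86 and Cd14, beside 5.2% of all genes tested in the class. Myd88 stood there at 11.03 and 13.4 CPM in ADAM and 17.3 and 14.9 CPM in AD, a log2 fold of -0.39 (SE 0.25, adjusted p = 1.0 by edgeR). That was 59.6% and 62.0% of the microglial level in ADAM and 79.0% and 64.3% in AD, while no other gene of the 10 exceeded 5.28%. Myd88 thus stood apart in these lymphocytes from the receptors and co-receptors.

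**Figure D5:**
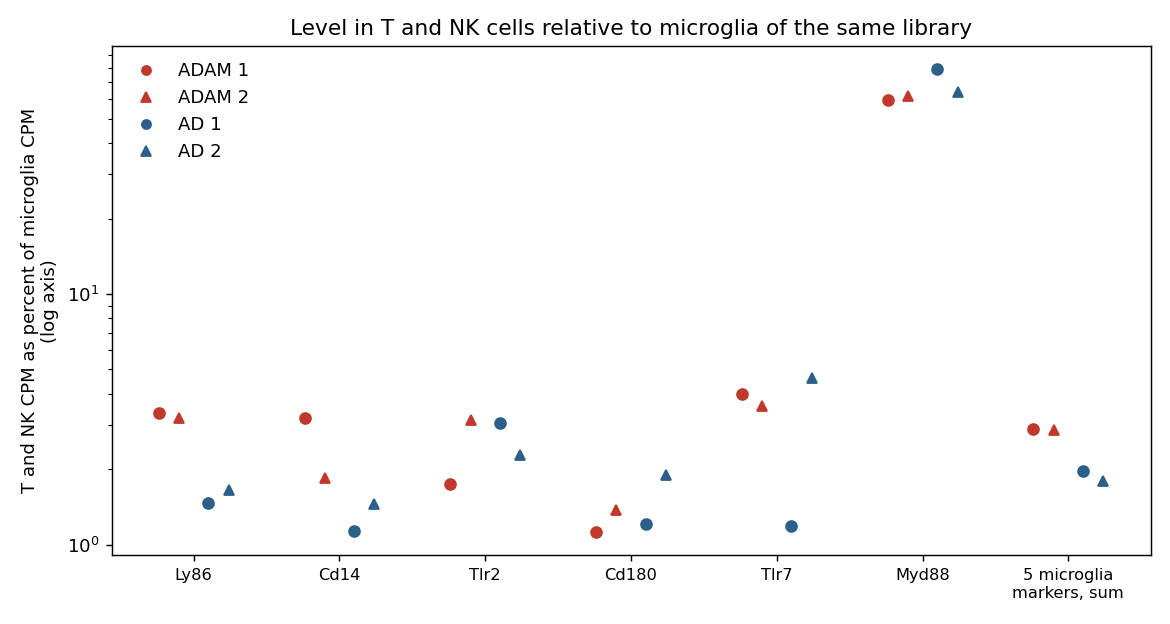
Level in T and NK cells as a percent of the level in microglia of the same library (logarithmic vertical axis) for 6 of the genes and for the sum of 5 microglia markers, with red points for ADAM and blue for AD. Ly86 and the marker sum are both higher in the ADAM libraries, and Myd88 lies between 59.6% and 79.0%. The sum includes Cx3cr1, which was at 2.18% and 2.31% in ADAM and 2.42% and 1.92% in AD.

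In monocytes Ly86 stood at 335 and 178 CPM in ADAM and 594 and 394 CPM in AD, a log2 fold of -0.94 (SE 0.31, adjusted p = 0.42 by edgeR). Tlr2 stood there at 70.5 and 96.2 CPM in ADAM and 45.6 and 50.7 CPM in AD, a log2 fold of 0.87 (SE 0.30, adjusted p = 0.45 by edgeR). Neither gene was called. Without ADAM 1 both were called, Ly86 at -1.33 (adjusted p = 0.0030 by edgeR) and Tlr2 at 1.15 (adjusted p = 0.042 by edgeR), where 4.37% of all genes were called. That comparison leaves ADAM 2 alone, the library whose monocyte class holds 69762 CPM of neutrophil markers, and the part of those markers was not tested. Without ADAM 2 none of the 10 genes was called in monocytes. In proliferating cells, 38 to 63 per library, ADAM 2 held 16471 CPM of neutrophil markers, against 154 CPM in ADAM 1 and 48.0 and 215 CPM in AD. The libraries of ADAM disagreed there: Ly86 stood at 819 and 243 CPM in ADAM and 961 and 872 CPM in AD, and Myd88 at 30.7 and 74.4 CPM in ADAM and 27.5 and 16.0 CPM in AD. Myd88 in proliferating cells had a log2 fold of 1.47 (SE 0.59, adjusted p = 0.51 by edgeR). Without ADAM 1, Ly86, Tlr7 and Myd88 were called beside 10.3% of all genes, and without ADAM 2, Cd14 and Tlr13 beside 10.5% of all genes. Each of these fits leaves 1 ADAM library, and the part of the neutrophil markers in these values was not tested.

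Whether the difference between state 5 and state 0 depended on genotype was tested as an interaction with library as a term. Tlr13 was the only call among the 9 genes tested, and 1.04% of all 11132 genes were called. Tlr13 stood in state 5 at 42.8 and 47.8 CPM in ADAM and 54.9 and 53.4 CPM in AD, against 66.7 and 90.5 CPM in ADAM and 80.1 and 66.7 CPM in AD in state 0. The log2 difference of state 5 over state 0 was -0.64 and -0.92 in ADAM and -0.55 and -0.32 in AD. Both ADAM libraries were below both AD libraries, and the interaction was -0.46 (SE 0.13, adjusted p = 0.048 by edgeR). The call did not hold without AD 1 (adjusted p = 0.17 by edgeR), without AD 2 (0.57), without ADAM 2 (0.67) and with no filter on low counts (0.053), and the value stayed negative in each. The neighbouring values of the same interaction were -0.29 (SE 0.14) for Ly86 and -0.26 (SE 0.13) for Tlr7, with edgeR adjusted p of 0.54 and 0.52. Within state 5 alone Tlr7 had a log2 fold of -0.31 (SE 0.12, adjusted p = 0.75 by edgeR), with 54.1 and 54.2 CPM in ADAM and 70.5 and 64.1 CPM in AD. Tlr7 and Tlr13 both lie on chromosome X, Tlr7 at 167304929 to 167330558 and Tlr13 at 106143204 to 106160493 on GRCm38. Cd14 had an interaction of -0.026 (SE 0.12, adjusted p = 0.98 by edgeR), so its higher level in state 5 differed between the genotypes by less than this error.

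The wider pathway was read from lists of 68 genes, of which 67 were in the count table. In microglia none was called by edgeR in either direction, and 2 of 60 tested, Irf7 and Cxcl10, had an unadjusted p under 0.05, which is 3.33% of them against 2.35% of all genes. The 9 accessory and trafficking proteins had 8 tested members, all with a positive fold, and a median log2 fold of 0.085. Among them Slc15a3 was at 0.12, the chaperone Cnpy3 at 0.099 and Slc15a4, an endolysosomal transporter, at 0.093. Of the 17 adaptors, kinases and ubiquitin ligases all were tested, 5 were positive and the median was -0.048, with Chuk, the kinase IKK alpha, at 0.14, Irak2 at -0.14 and Irak1 at 0.098. The 9 transcription factors had 6 positive folds and a median of 0.043, with Relb at 0.17, Irf3 at 0.14 and Irf5 at -0.051. Irf7, an interferon-induced factor named here after its values were seen, had the largest fold of this list at 0.74 (SE 0.25, adjusted p = 1.0 by edgeR), with 15.3 and 19.5 CPM in ADAM and 8.04 and 13.04 CPM in AD. The 11 inhibitors had 10 tested members, 7 positive, and a median of 0.096, with Nfkbia, the NF-kB inhibitor that is itself an NF-kB target, at 0.48 (SE 0.31), the phosphatase Dusp1 at 0.41 (SE 0.29) and Nfkbiz at 0.28 (SE 0.42). Of the 6 other receptors 4 were tested, 1 was positive, and Tlr12 was at 0.064. These medians stand beside the 0.0035 over all genes tested.

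The target cytokines and enzymes had 12 tested members of 16 in microglia, 9 with a positive fold, and a median log2 fold of 0.47. The chemokine Cxcl10 stood at 41.7 and 43.9 CPM in ADAM microglia and 18.8 and 23.7 CPM in AD microglia, a log2 fold of 1.05 (SE 0.13, adjusted p = 0.066 by edgeR). Il1b had a log2 fold of 1.17 (SE 0.51) and Ccl4 one of 0.55 (SE 0.58), neither called. Within single states 3 genes of this list were called, 1 of 10 tested in state 5, 1 of 7 in state 4 and 1 of 3 in state 3. The share of all genes called was 0.153% in state 5, 0.127% in state 4 and 0.313% in state 3. Il1b rose in state 5, at 53.5 and 53.2 CPM in ADAM and 31.1 and 20.2 CPM in AD, a log2 fold of 1.09 (SE 0.17, adjusted p = 0.035 by edgeR). Il1b (chromosome 2, 129364570 to 129371139 on GRCm38) lies 562 kb from the deleted Mertk (128698956 to 128802894), and the part of DNA linked to the deletion in its difference was not tested. None of the 10 receptor, co-receptor and adaptor genes lies on chromosome 2 or on chromosome 7, which holds Axl. Ccl5 rose in state 4, at 548 and 588 CPM in ADAM and 211 and 113 CPM in AD, a log2 fold of 1.88 (SE 0.27, adjusted p = 0.0018 by edgeR). Ccl3 fell in state 3, at 396 and 286 CPM in ADAM and 1076 and 703 CPM in AD, a log2 fold of -1.36 (SE 0.21, adjusted p = 1.5e-04 by edgeR). These 3 calls held without each library in turn, with edgeR adjusted p of at most 0.030. Of the 10 receptors, co-receptors and the adaptor, 9 were tested in state 5, 6 in state 4 and 5 in state 3, and none was called. With so few tested, the shares of all genes called there leave little room for a call.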

How the data were processed

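Single-cell RNA was measured in 4 libraries, 2 per genotype. The table deposited by the authors holds raw, unnormalized UMI counts for 15451 cells and 16798 genes given as symbols. A second table deposited by the authors gives each cell's library, class, microglia state and doublet mark, UMI and gene counts, and its mitochondrial percent. Per the submitters' processing notes, the build was mm10 and the tools were Seurat 3.2.1.9002 and Cell Ranger 3.1.0, whose roles and cell filters are not stated there. No cell had fewer than 500 UMIs. The authors' marks set aside 823 doublets without a class and 216 microglia and T cell doublets without a state.

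Raw UMI counts were summed per library and set of cells, and libraries were the replicates. Sets with at least 20 cells in every library were tested with edgeR 4.0.16 (R 4.3.3) by its quasi-likelihood test (TMM scaling, minimum count 10, robust fit, genotype as the only term), with Benjamini-Hochberg adjustment over all genes tested and a threshold of 0.05. The state by genotype interaction had library as a term. Levels are CPM without TMM scaling. A standard error (SE) is the absolute fold over the square root of F. A state ratio needed more than 3 UMIs in both states. Alternatives were DESeq2 1.42.0, voom of limma 3.58.1, other size factors, no filter, a replicate block, and leaving out each library, state 2, or the red cell and choroid plexus genes. The fits were tested on simulated data. Python 3.11.15 was used for the levels and figures.

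The 10 genes and the pathway lists were chosen with earlier results of these data known. All 10 were named in every set. From each list the called genes were named, with up to 3 of the largest absolute fold in microglia at 20 CPM or more, and the 3 genes most like each of the 10 by correlation, predicted and ribosomal protein genes left out. Promoters are RefSeq's on GRCm38.p6 and exons those of GENCODE release 21 for mouse. 1 gene of the microglia marker list is not reported here and is not in its sums.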

Additional observations from a re-analysis of the deposited data

Results flagged for a closer look

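The interaction of state and genotype for Tlr13 was singled out because the difference between state 5 and state 0 itself differed between the genotypes in a test of that difference. In log2 units its value was -0.46 (SE 0.13, adjusted p = 0.048 by edgeR), lower in 2 of 2 ADAM libraries than in both AD libraries. Over the alternatives run for it, including those without 1 library, it ranged from -0.62 to -0.29. The call did not hold without AD 1, without AD 2, without ADAM 2 or with no filter on low counts. DESeq2, limma-voom and the replicate block were not run for the interaction.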

How the results depend on the processing

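In microglia none of the 10 genes was called under any alternative: other size factors, no filter, DESeq2, limma-voom, the replicate block, either change of cells, the left-out red cell and choroid plexus genes, or without each library. The microglial folds changed sign in places. Without 1 library they ranged from -0.13 to 0.18 for Tlr4, -0.16 to 0.31 for Cd14, -0.017 to 0.20 for Ly86, -0.20 to 0.083 for Cd180, -0.11 to 0.13 for Tlr3, -0.11 to 0.15 for Tlr9, -0.12 to 0.20 for Tlr13 and -0.26 to 0.021 for Myd88. Tlr2 (0.14 to 0.40) and Tlr7 (-0.19 to -0.050) kept their sign. Tlr9 was 0.0040 by DESeq2, 0.0077 without state 2 and 0.013 with the microglia and T cell doublets. With the replicate number as a block, Tlr3 was 0.0085 and Tlr9 0.021. Same-numbered libraries did not deviate together (r = -0.22 over 11924 genes), no label says what a number marks, and the block changed no call of the 10 genes.

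Genes called without 1 library ranged from 0 to 1 in T and NK cells, 0 to 2 in monocytes, 0 to 3 in proliferating cells, 0 to 1 in state 0, 0 to 1 for the interaction, and were 0 in the other sets. With no filter on low counts 1 was called in monocytes (Ly86, edgeR adjusted p = 0.0088) and 0 for the interaction. Over all genes, edgeR's 5 calls in microglia became 17 by DESeq2, 18 with no filter, 8 without state 2, 0 with the replicate block, and 12 to 139 without 1 library, 139 being without ADAM 1. In T and NK cells 23 calls became 90 with the block, 107 with no filter, 17 by limma-voom and 4 to 37 without 1 library. The 116 calls of the interaction were 51 to 173 without 1 library. The sets where the 10 genes gained calls also gained them over all genes. Without 1 library the 6 calls in proliferating cells were 12 to 778 (750 without ADAM 1, 778 without ADAM 2), the 10 in monocytes 0 to 274 (276 with no filter) and the 11 in state 0 6 to 174, both highest without ADAM 1. The cause of these moves was not tested.

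Thinned to 2000 UMIs, the mean share of microglia with a UMI was 18.5% for Tlr2, 4.35% for Tlr4, 52.6% for Cd14, 25.9% for Cd180, 7.86% for Tlr3, 14.2% for Tlr7, 0.346% for Tlr9, 11.2% for Tlr13 and 4.495% for Myd88, against 38.8%, 11.4%, 75.6%, 52.0%, 18.8%, 33.9%, 0.779%, 28.8% and 11.9% unthinned. The thinned shares leave out cells with fewer than 2000 UMIs, which the unthinned shares include. Tlr9, at 10 to 31 UMIs per library in microglia, is near the detection limit, and sets of few cells give wide ranges.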
